A study of Mus musculus with 6 samples.

Results

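Myostatin, follistatin and the activin receptors form the signalling system described here, by 10 genes chosen by name: the ligand genes Mstn and Gdf11, the follistatin-type genes Fst, Fstl3 and Fstl1, the receptor genes Acvr2a, Acvr2b and Acvr1b, and the SMAD genes Smad3 and Smad7. All 10 were among the 17034 genes with values, of 74693 features listed, and all 10 were among the 13118 genes tested after a filter on low counts. The RNA was polyadenylated RNA of the gastrocnemius, a calf muscle with fast and slow fibres, taken from untreated male mice at 8 weeks of age. TRa_mKO mice (3 libraries) had the genotype Myf5-Cre; Thra fl/fl, in which Thra encodes thyroid hormone receptor alpha and the Cre transgene is driven by Myf5, so that recombination starts in embryonic myogenic cells. WT mice (3 libraries) were littermates that were Thra fl/fl and had no Cre. Cre was thus present in every TRa_mKO library and in no WT library. Effects of Cre itself and of the loss of Thra cannot be told apart. The labels place all 6 libraries in batch 1, and the design text counts 3 mice per genotype.

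Myostatin is a secreted member of the TGF-beta superfamily made mainly by skeletal muscle fibres, and animals without it have enlarged muscles. Myostatin, GDF11 and the activins bind the type II receptors ACVR2A and ACVR2B, which recruit a type I receptor such as ACVR1B (ALK4), and this complex phosphorylates SMAD2 and SMAD3, which enter the nucleus with SMAD4. Follistatin and FSTL3 bind and neutralise these ligands outside the cell, and SMAD7, itself induced by the pathway, blocks the receptor complex from within.

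Fst and Smad3 differed between the genotypes, in opposite directions. Fst was 1.99-fold higher in TRa_mKO muscle, and Smad3 was lower in TRa_mKO muscle by 46.3% (percent change -46.3). These were 2 of the 10 genes, 1 higher and 1 lower, where 4.17% of the 13118 genes tested were called in either direction, 2.52% higher and 1.65% lower. A call is an adjusted p below 0.05 in edgeR's quasi-likelihood test (two-sided), with Benjamini-Hochberg adjustment over all genes tested. The other 8 genes did not pass, among them both ligand genes and all 3 receptor genes. The 10 log2 fold changes, 6 above 0 and 4 below, had a median of 0.14, against 0.0 over all genes tested, and the median of their sizes without sign was 0.53, against 0.14. The 10 genes were chosen with earlier results of these data known. Setting them beside all genes tested is therefore a description and no test of the pathway. In whole muscle, a change in the number of cells of a type and a change in RNA per cell cannot be told apart.

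**Figure D1:**
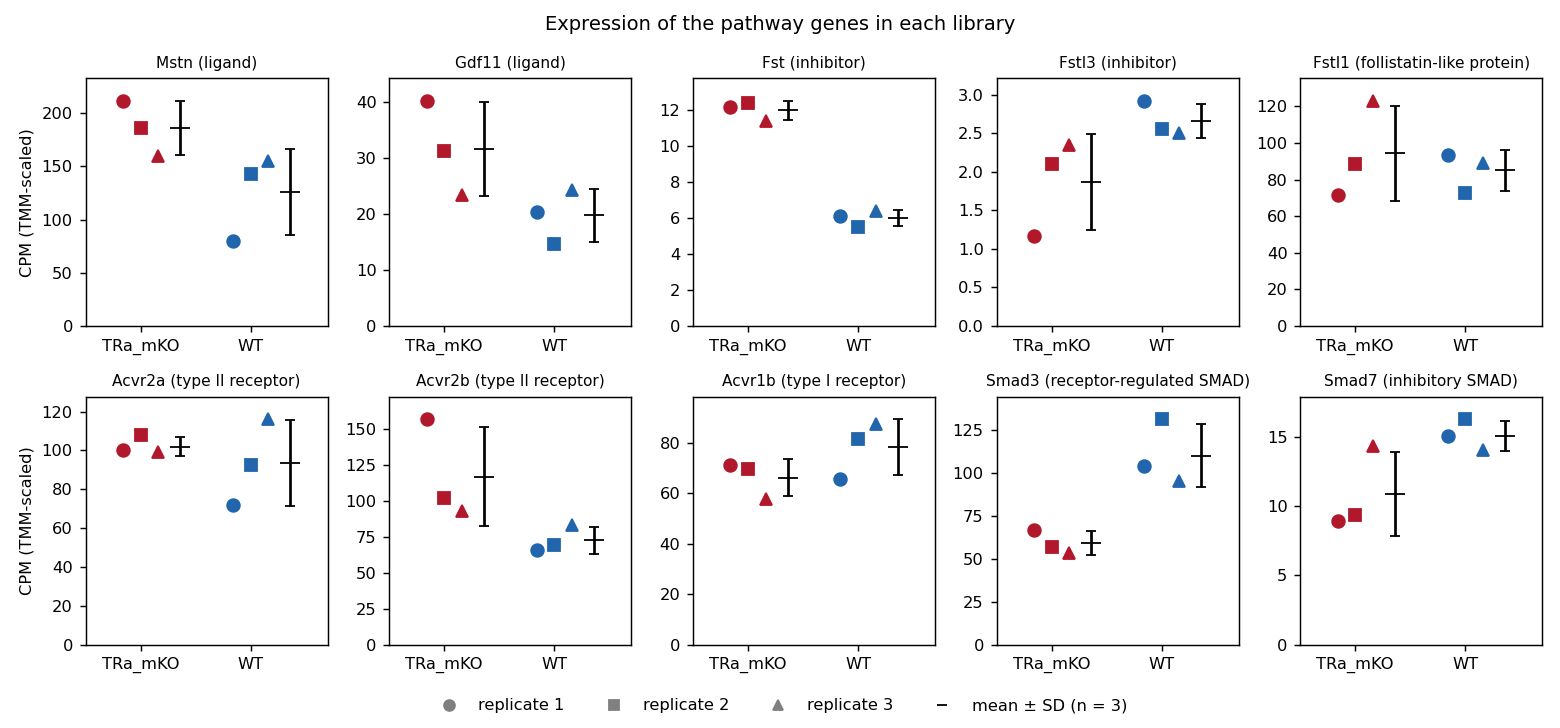
Normalised read counts (CPM, scaled by TMM) of the 10 genes, 1 panel per gene, with TRa_mKO libraries in red and WT libraries in blue; symbols mark the replicate number and the black bars the mean ± SD of 3 libraries. Fst lay between 11.4 and 12.4 CPM in TRa_mKO libraries and between 5.5 and 6.4 CPM in WT libraries, and Smad3 between 53.5 and 66.8 CPM against 94.9 to 131 CPM.

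**Figure D2:**
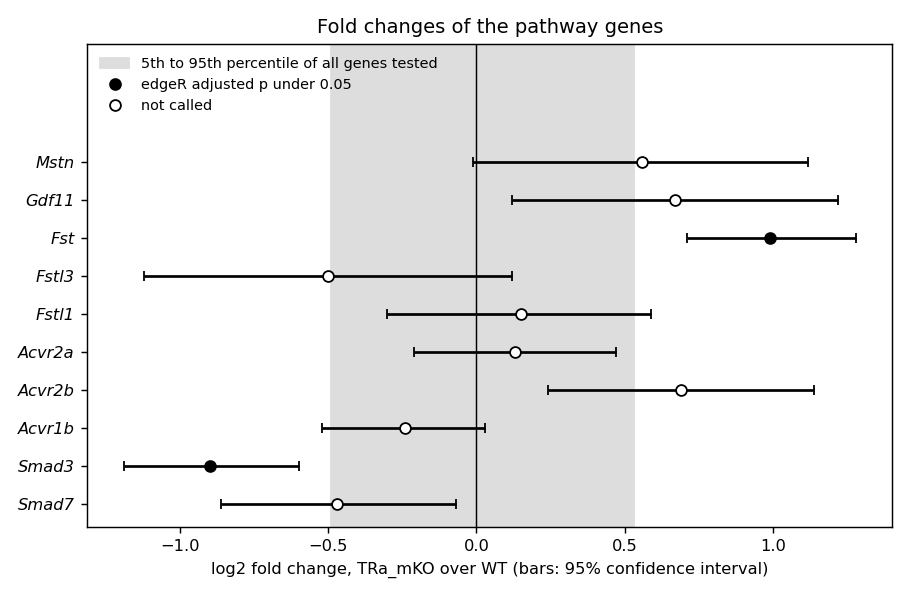
Log2 fold change of each gene, TRa_mKO over WT, with its 95% confidence interval; filled points passed the edgeR test, and the grey band spans the 5th to the 95th percentile of all genes tested (-0.49 to 0.53). Only Fst at 0.99 and Smad3 at -0.90 are filled; Gdf11, Acvr2b and Smad7 have intervals on 1 side of 0 and did not pass after adjustment.

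Library totals lay between 12390527 and 14488500 counts. Counts of the targeted gene, Thra (gene ID 21833), were not lower in TRa_mKO libraries: 129, 118 and 101 CPM, against 78.8, 92.8 and 96.8 CPM in WT libraries (log2 fold change 0.37, SE 0.12, edgeR adjusted p = 0.117). Thra counts were not whole in some or all libraries, so part of its reads may be shared with another gene. A count over the whole gene does not isolate the floxed part, so it checks neither the deletion nor the labels, and every direction here rests on the labels. Fibre markers such as Ckm, Acta1 and Myh4 summed to between 120801 and 136904 CPM in TRa_mKO and between 97840 and 130522 CPM in WT. Of the 10, edgeR called 0 and DESeq2 2, against 5.81% of all genes DESeq2 tested. With the genotypes apart, 3 were higher, among them Ckm and Acta1 (log2 fold changes 0.28 and 0.46), and 1 was lower. Over all genes tested, 23.2% had the genotypes apart. Markers of 9 other cell types were measured in the same libraries. The summed satellite cell markers were higher in every TRa_mKO library (39.6 to 45.6 CPM in TRa_mKO and 30.5 to 34.1 CPM in WT), as were the genes given below as higher with the genotypes apart. The summed markers of endothelium (635 to 884 and 889 to 1086 CPM), of pericytes and smooth muscle (1226 to 1472 and 1477 to 1567 CPM) and of tendon (81.6 to 146 and 152 to 322 CPM) were lower in every TRa_mKO library, as were the genes given below as lower with the genotypes apart. The 5 red cell markers summed to 710, 917 and 1621 CPM in TRa_mKO replicates 1 to 3 and to 1763, 590 and 458 CPM in WT replicates 1 to 3, so TRa_mKO replicate 3 and WT replicate 1 stood apart, and the calls are also given without them.

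The ligand genes were measured first. Mstn (gene ID 17700, chromosome 1), which encodes myostatin, had 211, 186 and 160 CPM in TRa_mKO libraries and 79.9, 143 and 155 CPM in WT libraries. The 3 TRa_mKO libraries were all above the WT libraries, but the lowest of them lay only just above the highest WT library, and WT replicate 1 stood far below the other WT libraries. The log2 fold change was 0.56 (SE 0.24, 95% confidence interval -0.01 to 1.12) and did not pass (edgeR adjusted p = 0.283). Without WT replicate 1 it was 0.30 (adjusted p = 0.328), and without WT replicate 3 it was 0.73 (adjusted p = 0.222).

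Gdf11 (gene ID 14561, chromosome 10) encodes growth differentiation factor 11, whose mature peptide is closely related in sequence to myostatin and which uses the same receptors. It had 40.1, 31.1 and 23.4 CPM in TRa_mKO and 20.3, 14.6 and 24.2 CPM in WT. The groups overlapped, since TRa_mKO replicate 3 lay below WT replicate 3. The log2 fold change of 0.67 (SE 0.24) did not pass in edgeR (adjusted p = 0.187), whereas DESeq2 called it (adjusted p = 0.0334).

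The promoter of Mstn is shown because E-boxes, the sites bound by myogenic basic helix-loop-helix factors such as MyoD, are a known feature of it, and that of Smad3 because it is the called gene for which the sequence table has an entry. Both run 5′ to 3′ from 250 bases before the annotated start to 50 after it, credited to RefSeq on GRCm38.p6. Mstn lies on the plus strand at chr1:53061390-53061689 and Smad3 on the minus strand at chr9:63757945-63758244. Capitals mark E-boxes (CANNTG, a motif that reads the same on both strands).
Mstn: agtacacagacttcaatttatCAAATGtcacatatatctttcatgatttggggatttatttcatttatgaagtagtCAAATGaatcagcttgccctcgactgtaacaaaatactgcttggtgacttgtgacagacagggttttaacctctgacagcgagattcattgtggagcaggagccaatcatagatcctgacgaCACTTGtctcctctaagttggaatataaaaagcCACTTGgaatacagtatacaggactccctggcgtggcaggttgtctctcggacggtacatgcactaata
Smad3: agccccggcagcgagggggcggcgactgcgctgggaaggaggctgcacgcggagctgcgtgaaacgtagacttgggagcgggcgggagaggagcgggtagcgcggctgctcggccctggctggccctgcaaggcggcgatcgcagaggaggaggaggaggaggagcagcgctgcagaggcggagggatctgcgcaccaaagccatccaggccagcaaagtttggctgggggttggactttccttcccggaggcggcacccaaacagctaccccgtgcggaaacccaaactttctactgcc
The Mstn window held 4 E-boxes, starting at positions -229, -174, -52 and -19 from the annotated start, and the Smad3 window held 0. An E-box was present in 72.3% of 32851 promoter windows of this length. AGGTCA, the half-site bound by thyroid hormone receptors and many other nuclear receptors, was searched on both strands and was found in neither window, while 16.3% of all windows held it. Its direct repeat with a spacer of 4 bases (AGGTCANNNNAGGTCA) was also absent from both, as from nearly all windows (0.0152% held it). The palindromic SMAD element GTCTAGAC was in neither and in 0.213% of all windows. These are matches of letters in a short window and say nothing of binding. Promoter windows were found for 8 of the 10 genes, and of these the Fstl3 window alone held AGGTCA, at position -200.

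Among the extracellular inhibitors, Fst rose. Fst (gene ID 14313, chromosome 13) encodes follistatin, which binds myostatin and the activins and promotes muscle growth. It had 12.2, 12.4 and 11.4 CPM in TRa_mKO libraries (166, 154 and 165 counts), against 6.14, 5.50 and 6.40 CPM in WT libraries (82, 71 and 97 counts). The genotypes were far apart, and the spread within each was small: 12 ± 0.523 CPM in TRa_mKO and 6.01 ± 0.465 CPM in WT (SD, n = 3 each). The log2 fold change was 0.99 (SE 0.13, 95% confidence interval 0.71 to 1.28, edgeR adjusted p = 0.00273). It passed in all 16 alternative fits, with adjusted p between 2.18e-05 and 0.0257, and the highest of these was the fit without TRa_mKO replicate 3 and WT replicate 1. Markers of satellite cells, the muscle stem cells, were also higher in sum in every TRa_mKO library. The 5 markers summed to 39.6, 44.1 and 45.6 CPM in TRa_mKO and 34.1, 32.5 and 30.5 CPM in WT. Among the 5 is Myf5, the gene that drives the Cre (8.49, 9.6 and 7.2 CPM in TRa_mKO and 6.96, 6.35 and 7.13 CPM in WT). Of these, Pax7 was called higher (edgeR adjusted p = 0.0261, ended without any 1 library other than WT replicate 2, at 0.0527 to 0.0916), and none of the 5 was at 0. The other 4 were not called, and of them Chrdl2 and Vcam1 overlapped between the genotypes (log2 fold changes 0.74 and 0.05). Within TRa_mKO the sum was highest in replicate 3, where Fst was lowest. The part of these markers in the Fst difference was not tested.

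Fstl3 (gene ID 83554, chromosome 10), a follistatin-related inhibitor of the same ligands, was the least expressed of the 10. It had 1.17, 2.10 and 2.35 CPM in TRa_mKO and 2.92, 2.56 and 2.51 CPM in WT. All TRa_mKO libraries lay below all WT libraries, at counts of only 16 to 39 per library, and the log2 fold change of -0.50 (SE 0.28) did not pass (edgeR adjusted p = 0.386). In TRa_mKO replicate 3 the Fstl3 count was not whole (34.06), as was that of the overlapping gene Prss57 (1.94), so a small part of its reads is shared. Fst and Fstl3 thus had estimates on opposite sides of 0, and the difference between the estimates was not tested.

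Fstl1 (gene ID 14314, chromosome 16) encodes a secreted glycoprotein that is follistatin-like in sequence and is made by fibroblasts and other mesenchymal cells as well as by muscle. It had 71.5, 88.5 and 123 CPM in TRa_mKO and 93.7, 72.6 and 89.3 CPM in WT. The groups overlapped, with TRa_mKO replicate 1 just below the WT range and TRa_mKO replicate 3 above it (log2 fold change 0.15, SE 0.19, edgeR adjusted p = 0.759). Without TRa_mKO replicate 3 the estimate was -0.09. Fibroblast markers summed to 1904, 2340 and 2625 CPM in TRa_mKO replicates 1 to 3, the same order as Fstl1, and to 2515, 2130 and 3027 CPM in WT. In WT both were lowest in replicate 2, but Fstl1 was highest in replicate 1 and the marker sum in replicate 3. None of the 8 markers was at 0 or called, and their part in the Fstl1 values was not tested.

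None of the 3 receptor genes passed the test. Acvr2b (gene ID 11481, chromosome 9), the type II receptor to which myostatin binds most strongly, had 157, 102 and 93.3 CPM in TRa_mKO and 65.6, 69.2 and 83.1 CPM in WT. The genotypes did not overlap, with TRa_mKO replicate 1 well above the rest. The log2 fold change was 0.69 (SE 0.20, 95% confidence interval 0.24 to 1.14) and did not pass in edgeR (adjusted p = 0.106), whereas DESeq2 called it (adjusted p = 0.00501). Without TRa_mKO replicate 1 the estimate was 0.42 (adjusted p = 0.0764). The summed satellite cell markers, given beside Fst, were also higher in every TRa_mKO library, though lowest among these in replicate 1 (39.6 CPM), and their part in the Acvr2b values was not tested.

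Acvr2a (gene ID 11480, chromosome 2), the other type II receptor for activins and myostatin, had 100, 108 and 99.1 CPM in TRa_mKO and 71.9, 92.4 and 116 CPM in WT. The TRa_mKO libraries lay inside the WT range (log2 fold change 0.13, SE 0.15, 95% confidence interval -0.21 to 0.47, edgeR adjusted p = 0.722). Its counts were not whole in any library, and in the RefSeq table it overlaps Orc4, which also had counts that were not whole. Acvr1b (gene ID 11479, chromosome 15), the type I receptor ALK4, had 71.5, 69.6 and 57.8 CPM in TRa_mKO and 65.9, 81.6 and 87.4 CPM in WT. The groups overlapped through WT replicate 1 (log2 fold change -0.24, SE 0.12, 95% confidence interval -0.52 to 0.03, edgeR adjusted p = 0.346).

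Inside the cell, Smad3 fell. Smad3 (gene ID 17127, chromosome 9) encodes the receptor-regulated SMAD that carries the myostatin, activin and TGF-beta signal to the nucleus. It had 66.8, 56.5 and 53.5 CPM in TRa_mKO libraries (912, 700 and 773 counts), against 104, 131 and 94.9 CPM in WT libraries (1384, 1686 and 1437 counts). No TRa_mKO library reached the lowest WT library. The mean was 58.9 ± 6.97 CPM in TRa_mKO and 110 ± 18.6 CPM in WT (SD, n = 3 each), and the log2 fold change was -0.90 (SE 0.13, 95% confidence interval -1.19 to -0.60, edgeR adjusted p = 0.00559). It passed in all 16 alternative fits, with estimates from -1.0 to -0.75 and adjusted p between 1.71e-07 and 0.0444. Markers of 3 other cell types were also lower in sum in every TRa_mKO library. The 6 endothelial markers summed to 635, 705 and 884 CPM in TRa_mKO and to 1086, 977 and 889 CPM in WT. Pecam1 and Emcn kept the genotypes apart (log2 fold changes -0.35 and -0.53), whereas the other endothelial markers overlapped. The 5 tendon markers summed to 137, 81.6 and 146 CPM in TRa_mKO and to 152, 172 and 322 CPM in WT. Among the tendon markers Thbs4 alone kept the genotypes apart (log2 fold change -0.90), whereas Fmod, Mkx, Tnmd and Scx overlapped (-0.94, -0.19, -0.08 and 0.39). The 5 markers of pericytes and smooth muscle summed to 1226, 1346 and 1472 CPM in TRa_mKO and to 1567, 1525 and 1477 CPM in WT. Most of it came from Rgs5 (1069 ± 95 CPM in TRa_mKO and 1232 ± 7.55 CPM in WT). Rgs5 and Notch3 kept the genotypes apart, whereas Acta2, Myh11 and Cspg4 overlapped (log2 fold changes 0.12, -0.27 and 0.08). None of these 16 markers was at 0, and of them Notch3 alone was called (lower, edgeR adjusted p = 0.0399, ended without any 1 library other than TRa_mKO replicate 1, at 0.0768 to 0.168). Within TRa_mKO, Smad3 was highest in replicate 1, where the endothelial and smooth muscle sums were lowest, and the part of these markers in the Smad3 difference was not tested.

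Smad2, the partner of Smad3 below the same receptors, and Smad4, the SMAD common to all branches, were not called. Smad2 averaged 29.9 ± 1.75 CPM in TRa_mKO and 26.4 ± 3.41 CPM in WT (log2 fold change 0.18, SE 0.11, edgeR adjusted p = 0.427). Smad4 averaged 88.8 ± 4.05 CPM in TRa_mKO and 89.5 ± 8.48 CPM in WT (log2 fold change -0.01, SE 0.09, edgeR adjusted p = 0.968).

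Smad7 (gene ID 17131, chromosome 18), the inhibitory SMAD, had 8.93, 9.36 and 14.4 CPM in TRa_mKO and 15.1, 16.3 and 14.1 CPM in WT. TRa_mKO replicates 1 and 2 lay well below every WT library, while TRa_mKO replicate 3 lay within the WT range. Its log2 fold change was -0.47 (SE 0.18, 95% confidence interval -0.86 to -0.07), which did not pass (edgeR adjusted p = 0.193). It passed when TRa_mKO replicate 3 was left out (log2 fold change -0.73, adjusted p = 0.0226, in a fit that called 2.83% of the genes tested). Within TRa_mKO the summed endothelial markers, given beside Smad3, rose from replicate 1 to replicate 3, as Smad7 did. So did the summed markers of smooth muscle, fibroblasts, satellite cells, nerve and red cells. In WT the endothelial sum was highest in replicate 1, whereas Smad7 was highest in replicate 2. All 6 endothelial markers had log2 fold changes below 0, but only Pecam1 and Emcn kept the genotypes apart. None of the 6 passed, none was at 0, and their part in the Smad7 values was not tested.

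Of the 10 genes, 5 had all libraries of the genotypes apart, 3 higher and 2 lower in TRa_mKO, where 23.2% of all genes tested did (13.2% higher and 10.1% lower). The higher ones were Mstn, Fst and Acvr2b, and the lower ones Fstl3 and Smad3. DESeq2 called 4 of the 10 (Fst, Acvr2b and Gdf11 higher, Smad3 lower) and 5.81% of all genes it tested.

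Levels were set side by side between genes per kilobase of the longest coding transcript (CPM per kb). Mstn was the highest in both genotypes, at 68.6 ± 9.44 CPM per kb in TRa_mKO and 46.7 ± 15 CPM per kb in WT (SD, n = 3 each), above the range of Acvr2b, which came next at 36.9 ± 10.9 and 22.9 ± 2.9 CPM per kb in TRa_mKO and WT. In TRa_mKO the order went on with Fstl1, Acvr2a, Acvr1b, Smad3, Gdf11, Fst, Smad7 and Fstl3. Library ranges of neighbours in this order overlapped for Acvr2b and Fstl1, for Fstl1 and Acvr2a, and for Acvr1b and Smad3. In WT the ranges of each pair of neighbours overlapped from Acvr2b through Fstl1, Smad3, Acvr1b and Acvr2a, and again for Gdf11 and Smad7. Smad3 stood at rank 6 in TRa_mKO, with 11.6 ± 1.37 CPM per kb, and at rank 4 in WT, with 21.5 ± 3.66 CPM per kb. Fst stood above Smad7 in TRa_mKO (4.24 ± 0.185 and 2.55 ± 0.71 CPM per kb) and below it in WT (2.12 ± 0.164 and 3.54 ± 0.258 CPM per kb). Fstl3 was last in both, at 0.959 ± 0.318 CPM per kb in TRa_mKO and 1.36 ± 0.115 CPM per kb in WT. The order depends on the transcript length used: with the median length, Smad3 came first, at 97.4 CPM per kb in TRa_mKO and 181 CPM per kb in WT, the median of its annotated coding transcripts being far shorter than the longest. Fst and Smad7 then did not change places: Smad7 stood above Fst in both genotypes, at 8.15 and 8.1 CPM per kb in TRa_mKO, where their libraries overlapped, and at 11.3 and 4.06 CPM per kb in WT.

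**Figure D3:**
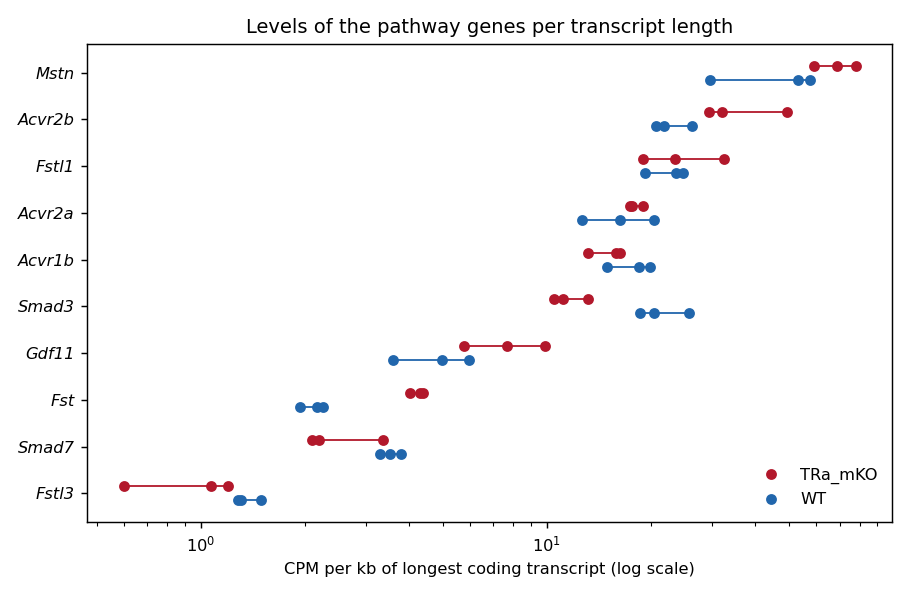
CPM per kb of the longest coding transcript on a log axis, genes ordered by their mean in TRa_mKO; each point is a library and each line spans the 3 libraries of a genotype, TRa_mKO in red above WT in blue. Mstn is highest in both genotypes, and Fst and Smad3 are the 2 genes whose red and blue ranges lie furthest apart.

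Ratios within a library need no scaling between libraries. With 3 libraries against 3, the exact two-sided permutation test used for them cannot give a p below 0.1. The log2 ratio of Fst to Mstn, inhibitor to ligand, was -4.12, -3.90 and -3.81 in TRa_mKO and -3.70, -4.71 and -4.60 in WT. TRa_mKO values lay inside the WT range, which WT replicate 1 with its low Mstn widened (difference 0.39, exact permutation p = 0.4). The log2 ratio of Gdf11 to Mstn was -2.39, -2.58 and -2.77 in TRa_mKO and -1.98, -3.29 and -2.69 in WT (difference 0.07, exact permutation p = 0.9). The ratio of the 2 type II receptor genes kept the genotypes apart: the log2 ratio of Acvr2a to Acvr2b was -0.65, 0.08 and 0.09 in TRa_mKO, below 0.13, 0.42 and 0.48 in WT (difference -0.50, exact permutation p = 0.1, the smallest this design allows). The margin was narrow, with 0.09 in TRa_mKO replicate 3 and 0.13 in WT replicate 1. Without TRa_mKO replicate 1 the difference was -0.26. The log2 ratio of Smad7 to Smad3 was -2.90, -2.59 and -1.89 in TRa_mKO and -2.78, -3.01 and -2.75 in WT, with overlap (difference 0.38, exact permutation p = 0.3).

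**Figure D4:**
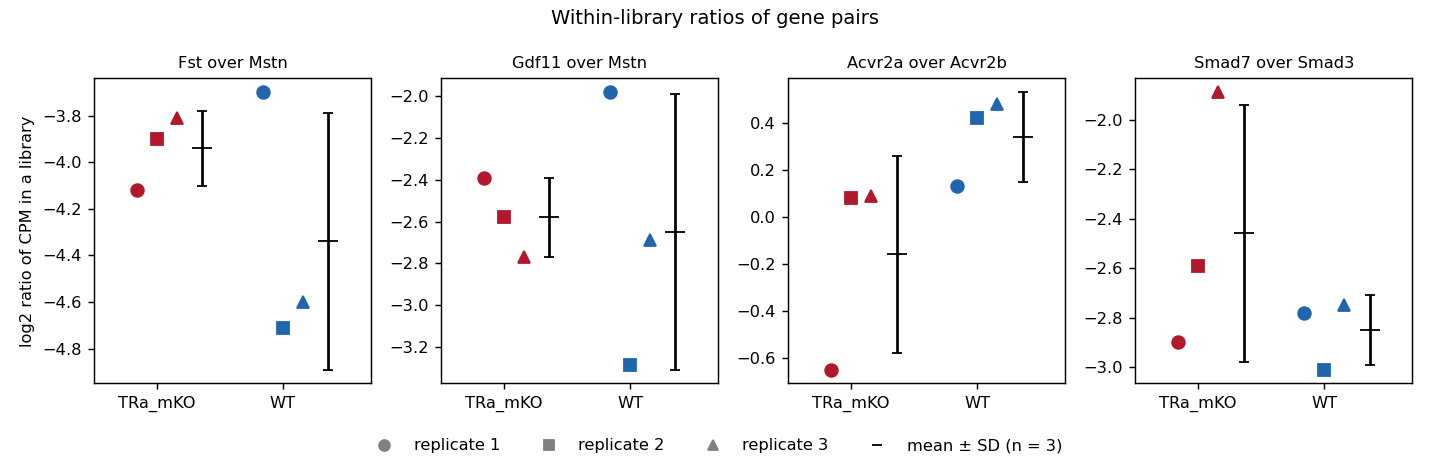
Log2 ratio of the CPM of 2 genes within each library, for 4 pairs, TRa_mKO in red and WT in blue; symbols mark the replicate number and black bars the mean ± SD of 3 libraries. The ratio of Acvr2a to Acvr2b keeps the genotypes apart (-0.16 ± 0.42 in TRa_mKO and 0.34 ± 0.19 in WT), and the other 3 ratios overlap.

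The rest of the superfamily was examined by 6 lists, to be read against all genes tested, of which 17.9% had an unadjusted edgeR p below 0.05 and edgeR called 4.17%, DESeq2 5.81% and limma-voom 3.87%. Of 13 other ligand genes tested (of 20 listed), 1 was higher and 1 lower, and the median log2 fold change was -0.28, against 0.0 over all genes. An unadjusted edgeR p below 0.05 was reached by 4 of 13, against 17.9% of all genes, and DESeq2 and limma-voom called 2 each. Inha, the inhibin alpha subunit, which antagonises activin signalling when joined to a beta subunit, had 12.5, 12.6 and 7.68 CPM in TRa_mKO and 5.61, 4.8 and 5.68 CPM in WT. All TRa_mKO libraries were above WT (log2 fold change 1.02, SE 0.20, edgeR adjusted p = 0.0221). This call ended without any 1 library other than TRa_mKO replicate 3 (adjusted p = 0.0552 to 0.104). Bmp6, a BMP ligand made in part by endothelial cells, had 30.5, 33.7 and 35.4 CPM in TRa_mKO and 68.4, 50.1 and 46.5 CPM in WT. All TRa_mKO libraries were below WT (log2 fold change -0.73, SE 0.14, edgeR adjusted p = 0.0219), and the call ended without any 1 TRa_mKO library (adjusted p = 0.0555 to 0.0862). The activin beta subunits were scarce: Inhba averaged 2.23 ± 0.544 CPM in TRa_mKO and 2.87 ± 0.45 CPM in WT, and Inhbb 2.52 ± 0.407 CPM in TRa_mKO and 2.00 ± 0.501 CPM in WT (adjusted p = 0.51 and 0.573).

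Of 14 other receptor and coreceptor genes tested (of 15), 1 was higher and 0 lower, with a median of -0.11. Below an unadjusted p of 0.05 there were 6 of 14, against 17.9% of all genes, and DESeq2 and limma-voom called 1 each. Bmpr1b, a type I receptor for BMPs and growth differentiation factors, had 18.4, 19.7 and 16.8 CPM in TRa_mKO and 8.16, 9.22 and 10.4 CPM in WT, with the genotypes far apart. Its log2 fold change was 0.98 (SE 0.13, edgeR adjusted p = 0.00271), and it passed whichever single library was left out (adjusted p = 0.00572 to 0.0199). The summed satellite cell markers, given beside Fst, were higher in every TRa_mKO library as well, and their part in the Inha and Bmpr1b values was not tested.

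Of 23 other extracellular antagonists, latency proteins and proteases tested (of 30), 2 were higher and 0 lower, with a median of -0.09. Below an unadjusted p of 0.05 there were 6 of 23, against 17.9% of all genes, and DESeq2 and limma-voom called 2 each. Ltbp3, which holds latent TGF-beta in the matrix, had 96.6, 95.5 and 94.9 CPM in TRa_mKO and 58.8, 75.5 and 73.3 CPM in WT (log2 fold change 0.47, SE 0.10, edgeR adjusted p = 0.0364). Its call ended without any 1 of the 6 libraries (adjusted p = 0.0502 to 0.137) and with library sizes alone (adjusted p = 0.0597).

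Of 25 other SMADs and SMAD regulators tested (of 26), 0 were higher and 1 lower, with a median of 0.02. Below an unadjusted p of 0.05 there was 1 of 25, against 17.9% of all genes, and DESeq2 and limma-voom called 1 each. Skil, which encodes the SMAD corepressor SnoN and is itself induced by TGF-beta, had 19.4, 21.9 and 24.7 CPM in TRa_mKO and 36.9, 30.9 and 30.4 CPM in WT. All TRa_mKO libraries were below WT (log2 fold change -0.57, SE 0.12, edgeR adjusted p = 0.026), and the call ended when WT replicate 1 (adjusted p = 0.0741) or either of TRa_mKO replicates 1 and 2 (0.0565 and 0.0996) was left out.

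Of 17 genes known to respond to TGF-beta or activin through SMAD3, edgeR called 0, with a median of 0.05. Below an unadjusted p of 0.05 there were 4 of 17, against 17.9% of all genes. DESeq2 called 3, all higher, against 5.81% of all genes, and limma-voom 0. Col3a1, a fibrillar collagen gene, had 321, 423 and 537 CPM in TRa_mKO and 309, 249 and 299 CPM in WT (log2 fold change 0.58, SE 0.18, edgeR adjusted p = 0.112). It passed without TRa_mKO replicate 1 (edgeR adjusted p = 0.0215, in a fit that called 595 genes). Without any other single library it did not pass (edgeR adjusted p = 0.195 to 0.278). The estimate was 0.38 without TRa_mKO replicate 3.

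Of 8 BMP-responsive genes tested (of 9), 0 were higher and 1 lower, with a median of -0.21. Below an unadjusted p of 0.05 there were 2 of 8, against 17.9% of all genes, and DESeq2 called 2 and limma-voom 1. Id2, an inhibitor of basic helix-loop-helix factors, had 6.15, 4.44 and 5.12 CPM in TRa_mKO and 9.73, 8.83 and 8.32 CPM in WT (log2 fold change -0.77, SE 0.16, edgeR adjusted p = 0.0271). All TRa_mKO libraries were below WT, and the call ended without any 1 library other than TRa_mKO replicate 1 (adjusted p = 0.0599 to 0.109). The summed markers of endothelium, of pericytes and smooth muscle and of tendon, given beside Smad3, were also lower in every TRa_mKO library. Of the 5 smooth muscle markers, however, Rgs5 and Notch3 kept the genotypes apart, whereas Acta2, Myh11 and Cspg4 overlapped (log2 fold changes 0.12, -0.27 and 0.08). Of the tendon markers, Thbs4 alone kept the genotypes apart. The part of all these markers in the Bmp6, Skil and Id2 values was not tested.

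**Figure D5:**
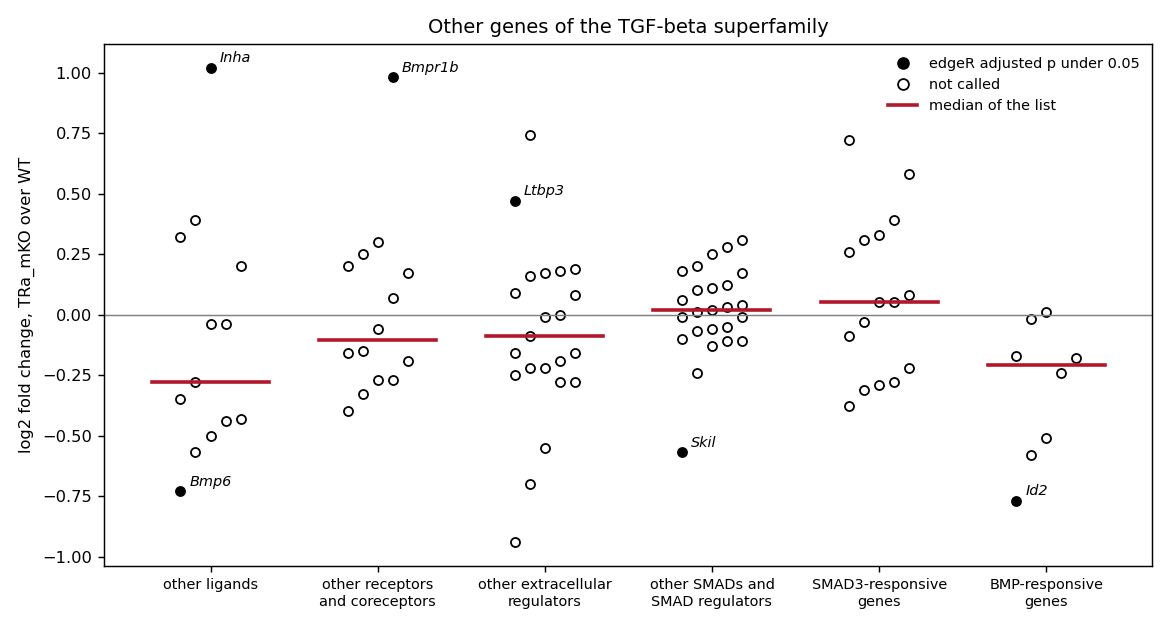
Log2 fold change, TRa_mKO over WT, of tested genes from the 6 lists; filled points passed the edgeR test and are named, open points did not, and red bars are the medians of the whole lists. The filled points are Inha, Bmpr1b and Ltbp3 above 0 and Bmp6, Skil and Id2 below it, and the medians lie between -0.28 and 0.05.

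Profiles most like those of Mstn, Fst and Smad3 were sought among 11686 genes by the root mean square difference of log2 CPM over the 6 libraries, each profile centred on its own mean. Nearest to Mstn was Cadm1, a cell adhesion gene, at a difference of 0.0492, with 27.4, 24.1 and 20.5 CPM in TRa_mKO and 11.1, 18.1 and 19.5 CPM in WT. Enox2 (0.0923) and Tnfrsf23 (0.128) came next, and all 3 shared the low value of WT replicate 1. Nearest to Fst were Pde3b, a cyclic nucleotide phosphodiesterase gene (0.0876), Obsl1, a gene of the muscle cytoskeleton (0.0949), and Galnt17 (0.0967). Nearest to Smad3 were Exoc3l2 and Pcx, the pyruvate carboxylase gene (0.102 each), and Mpp3 (0.12). The median difference of all genes compared was 0.465 from Mstn, 0.516 from Fst and 0.494 from Smad3. The named genes were picked as the nearest of 11686 over only 6 libraries, so they lie below these medians by selection. Their likeness is a description and was not tested.

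Over all genes tested, 547 were called, 331 higher and 216 lower in TRa_mKO. When libraries were scaled by their totals and by nothing else, 213 were higher and 255 lower, and Fst (0.94) and Smad3 (-0.94) still passed, as they did without TRa_mKO replicate 3 and WT replicate 1 (1.04 and -0.87, adjusted p = 0.0257 and 0.0444), where 2.03% of the genes tested were called. In that fit of 2 against 2 libraries the calls ended for Ltbp3, Skil and Id2 (edgeR adjusted p = 0.147, 0.0546 and 0.18) and were kept for Inha, Bmp6 and Bmpr1b (0.0138, 0.0334 and 0.0166).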

How the data were processed

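RNA-seq of 6 gastrocnemius libraries, 3 per genotype, was analysed from 1 table. It holds the authors' deposited values, which are unnormalized and are called read counts in the file headers. They were treated as estimated counts, since 9.65% to 10% of the deposited values of a library were not whole. The submitters' processing notes list featureCounts, Trimmomatic 0.39, FastQC 0.11.9 and MultiQC 1.12, and, without roles, the builds GRCm39, GRCm38.p6 and mm10. Aligner, annotation and strand setting: not given in the sources used here. Libraries were stranded by dUTP, per the labels' protocols. Without the strand setting, reads of overlapping genes cannot be told apart: 7 of the 10 genes overlap another RefSeq gene, and 2 of those overlapping genes (Orc4 and Prss57) had values.

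Counts were rounded, filtered with filterByExpr (minimum count 10), scaled by TMM and tested with edgeR 4.0.16 (robust quasi-likelihood, genotype alone) in R 4.3.3; the step was first tested on simulated counts. CPM are the TMM-scaled normalised counts, SE and 95% intervals come from the same fit, and the common biological coefficient of variation was 11.8%. Library totals of 12390527 to 14488500 limit genes with few counts such as Fstl3. No 2 libraries were duplicates (chi-square per degree of freedom of 7.75 or more). DESeq2 1.42.0, limma-voom (limma 3.58.1), other scalings and filters, a replicate block and left-out libraries were the alternatives. Transcript lengths are from GENCODE M21, promoters and overlaps from RefSeq GRCm38.p6. Ratios were tested in Python 3.11.15.

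The 10 genes and the lists were chosen with earlier results of these data known. The named genes are the 10, Thra, up to 6 called genes per list (where none was called, the 2 with the smallest p) and the 3 nearest profiles of Mstn and of each called gene (mean log2 CPM of 1 or more). Some genes that this rule names are not reported here. Smad2, Smad4, Inhba and Inhbb were added for their role after their values were seen, and Pax7 and Notch3 as called markers. The marker lists not described elsewhere, given as summed CPM in TRa_mKO and in WT, were macrophage (39.9 to 58.9 and 42.1 to 57.3), adipocyte (6.71 to 18.9 and 13.2 to 15.1) and nerve (288 to 392 and 189 to 786), with 0 called in each.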

Additional observations from a re-analysis of the deposited data

How the results depend on the processing

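Fst and Smad3 kept their direction and passed in all 16 alternative fits, and Smad3 passed least clearly without TRa_mKO replicate 3 and WT replicate 1 together. Of the other 8 genes, Gdf11 and Acvr2b passed with DESeq2 alone (log2 fold changes 0.67 and 0.69), so that 4 genes were called there, and Smad7 passed without TRa_mKO replicate 3 (-0.73; range over single left-out libraries -0.73 to -0.34). Estimates near 0 changed sign for Fstl1 (-0.09 to 0.31 over single left-out libraries, and -0.02 without both libraries high in haemoglobin) and Acvr2a (-0.04 to 0.32, and -0.01). The difference in the log2 ratio of Gdf11 to Mstn ranged from -0.25 to 0.41 over single left-out libraries, with -0.25 without WT replicate 2 and -0.03 without TRa_mKO replicate 1. With the median transcript length, 2 genes in TRa_mKO and 4 in WT kept their rank of level. The cause of these shifts was not tested.

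The labels give both genotypes replicate numbers 1 to 3, but deviations of same-numbered libraries from their group means correlated at -0.176, 0 and -0.006, below 0.1, and not every library correlated best with its own number, so the numbers were not taken as pairs. With the replicate block, 357 genes passed in place of 547; Fst (0.99) and Smad3 (-0.89) passed, 1 gene passed among other ligands, 1 among extracellular regulators and 0 among SMAD regulators. The total was 267 without the libraries high in haemoglobin, 934 at an adjusted p below 0.1, and 209 to 595 with single libraries left out. List counts over single left-out libraries were 0 to 1 for other ligands, 1 to 2 for other receptors, 1 to 2 for extracellular regulators, 0 to 1 for SMAD regulators, 0 to 2 for SMAD3-responsive and 0 to 1 for BMP-responsive genes. DESeq2 called 3 SMAD3-responsive and 2 BMP-responsive genes. Extracellular regulators numbered 1 with library sizes alone and 1 without the libraries high in haemoglobin, where SMAD regulators numbered 0.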
